A study of Mus musculus with 12 samples.

Results

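Tmem176a and Tmem176b encode a pair of tetraspan membrane proteins, and Ms4a4c, Ms4a6b, Ms4a6c, Ms4a6d and Ms4a7 belong to the related Ms4a family, whose best known member is the B cell antigen CD20 (Ms4a1). The members were taken by symbol from a list of 8 genes that was chosen by earlier results of these same libraries, and which of the comparisons led to the choice was not recorded. Of the 8 listed symbols 7 were found, among 24346 symbols in all. Ms4a4a, the family member best known from alternatively activated macrophages, was not among the symbols and was not analysed here. All 7 genes found had at least 1 FPKM (fragments per length of transcript and per size of the library) in at least 3 libraries, a minimum met by 11808 genes. Since every comparison is treated as used for the choice, the members' differences are a description, and p-values are given only for genes that are not members. Where members are listed among genes called by a fit, the count or share over all genes stands beside them. Nothing is read from such calls.

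Tumour-associated macrophages were profiled by bulk RNA-seq from Arg1-RFP reporter mice, in which a red fluorescent protein marks cells that express arginase 1. The mice bore either B16F10 melanoma or MC38 colon adenocarcinoma tumours, and the reporter was present in the animals of all 4 groups. Cells that carried CD45, MHC class II, F4/80 and CD11b, and lacked CD90.2, B220, NK1.1, Ly6G and Ly6C, were sorted into an RFP+ and an RFP- gate, with 3 libraries for each of B16F10 RFP+, B16F10 RFP-, MC38 RFP+ and MC38 RFP- and no untreated or tumour-free group. The sort used MHC class II, F4/80 and CD11b proteins, and the animals' age, sex and time after tumour injection were not stated in the sources used here. The study's design gives n = 3 mice without saying which mouse a library came from. The p-values therefore measure the spread between libraries, which may in part be technical. The title numbers are 12, 11 and 3 in B16F10 and 1, 2 and 3 in MC38, each present in both gates, and libraries with the same number deviated together from their group means.

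As background, Tmem176a and Tmem176b are cation channel-like proteins of late endosomal and Golgi membranes, abundant in dendritic cells and macrophages. Tmem176b is known to take part in antigen presentation by dendritic cells and to restrain the NLRP3 inflammasome. The macrophage Ms4a proteins are tetraspan proteins of the cell surface and endosomes that associate with other receptors. The human MS4A locus is known for its link to the amount of soluble TREM2, and mouse Ms4a7 is widely used as a marker of certain tissue macrophages.

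The 7 genes lie in 2 clusters. In GRCm38, the build of the mm10 reference named by the submitters, Tmem176a (ENSMUSG00000023367.14, plus strand, chr6:48840919-48847071) and Tmem176b (ENSMUSG00000029810.15, minus strand, chr6:48833818-48841496) stand head to head and overlap by 578 bases. Whether counting used strand was not stated, so reads from those 578 bases may not be assigned to the right gene. The 5 Ms4a genes lie within 284 kb of chromosome 19, in the order Ms4a7 (minus strand, chr19:11321039-11336146), Ms4a4c (plus, chr19:11404770-11427246), Ms4a6c (plus, chr19:11469366-11482192), Ms4a6b (plus, chr19:11516512-11531256) and Ms4a6d (minus, chr19:11586604-11604849). In the GENCODE transcripts 8.13% of the 50-base windows of Ms4a4c also occur in another gene of the family, most often Ms4a4b. The shares were 5.66% for Ms4a6b and 6.08% for Ms4a6c, which share most with each other, 2.69% for Ms4a6d and 0% for Ms4a7, Tmem176a and Tmem176b. Values of Ms4a4c, Ms4a6b and Ms4a6c are therefore uncertain by as much as their shared reads could be split. Ms4a6c also overlaps an antisense gene, BE692007, over 12027 bases.

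Promoter windows of Tmem176a, Ms4a6c and Ms4a6b are shown because the first is shared head to head within the Tmem176 pair and the other two share a long run of letters, and in both pairs the levels moved together. They come from RefSeq (GRCm38.p6), run from 250 bases before to 50 bases after a start site, and are printed in the direction of the gene. The Tmem176a window (plus strand, chr6:48841233-48841532) overlaps 3 windows of Tmem176b by 155, 208 and 6 bases, so that both genes start from one stretch of DNA. Its capitals mark the core letters GAGGAA of sites bound by PU.1, the macrophage lineage factor, here on the opposite strand. In the windows of Ms4a6c (plus strand, chr19:11469118-11469417) and Ms4a6b (plus strand, chr19:11518309-11518608) the capitals mark their longest shared run, 48 bases, and the windows were 85.3% identical over 225 aligned bases.
Tmem176a: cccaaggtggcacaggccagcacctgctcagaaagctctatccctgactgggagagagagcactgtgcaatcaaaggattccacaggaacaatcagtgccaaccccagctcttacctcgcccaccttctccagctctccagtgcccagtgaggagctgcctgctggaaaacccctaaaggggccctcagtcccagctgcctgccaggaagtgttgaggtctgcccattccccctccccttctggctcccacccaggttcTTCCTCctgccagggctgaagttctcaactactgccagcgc
Ms4a6c: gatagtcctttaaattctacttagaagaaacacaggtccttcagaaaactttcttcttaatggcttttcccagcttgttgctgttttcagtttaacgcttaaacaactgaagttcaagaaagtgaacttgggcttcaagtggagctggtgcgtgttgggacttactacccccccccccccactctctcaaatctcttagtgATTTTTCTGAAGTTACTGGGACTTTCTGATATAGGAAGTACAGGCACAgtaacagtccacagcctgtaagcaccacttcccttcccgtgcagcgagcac
Ms4a6b: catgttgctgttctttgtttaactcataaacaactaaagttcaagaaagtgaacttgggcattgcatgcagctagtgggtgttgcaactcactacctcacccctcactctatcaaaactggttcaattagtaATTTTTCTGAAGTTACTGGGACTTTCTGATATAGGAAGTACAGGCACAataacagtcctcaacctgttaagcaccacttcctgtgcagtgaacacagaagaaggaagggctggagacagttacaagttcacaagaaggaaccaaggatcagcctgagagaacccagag

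Windows were found for 7 of the 8 listed genes, Ms4a4a included, and the RefSeq table held none for Ms4a6d. Both strands of the 11 windows were searched for 6 motifs, and the share of all 32851 mouse windows that hold each is given with it. The PU.1 core GAGGAA (28.3% of all windows) occurred in each window of Tmem176a and Ms4a4c, and in some but not all windows of Tmem176b and Ms4a7. The shares are per window, and a gene with several windows has more places for a match. The STAT6 spacing, TTC and GAA with any 4 bases between (6.95%), occurred in Ms4a6b and Ms4a7, and the AP-1 motif TGANTCA (7.81%) in Ms4a7. The PU.1 and IRF composite, GGAA and GAAA with any 2 bases between (2.72%), the interferon response core, GAAA and GAAA with any 2 bases between (3.44%), which can overlap it, and the hypoxia response core ACGTG (19.6%) occurred in none of the 11 windows. A match describes letters and not a bound site, and the windows of Tmem176a and Tmem176b hold in part the same letters.

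Levels of the 7 genes covered a wide range in each group. By group mean, Ms4a7 stood at the 99.6 percentile of the 11808 genes in MC38 RFP+ cells and Ms4a6d at the 98.9 percentile. Below them came Ms4a6c, Ms4a6b, Ms4a4c, Tmem176b and Tmem176a in that order, with means of 412, 235, 192, 169.5 and 72.2 FPKM. Ms4a4c (SD 97.8), Tmem176b (SD 80.5) and Ms4a6b (SD 43.3) did not differ from each other beyond their spread there. In B16F10 RFP+ cells the order was Ms4a6d (224 ± 33.1 FPKM, SD, n = 3), Tmem176b (191 ± 32.9), Ms4a7 (169 ± 56.0), Ms4a6c (83.7 ± 24.9), Ms4a6b (56.2 ± 17.3), Tmem176a (47.7 ± 10.7) and Ms4a4c (11.4 ± 1.79). The first 3 overlapped in their libraries, as did Ms4a6c, Ms4a6b and Tmem176a in part, while Ms4a4c lay below all others. In RFP- cells of B16F10 the order was Tmem176b (266 ± 31.6), Ms4a6d (162 ± 59.7), Ms4a7 (135 ± 54.7), Ms4a6c (99.6 ± 40.5), Tmem176a (92.2 ± 24.1), Ms4a6b (69.5 ± 32.4) and Ms4a4c (16 ± 3.05). In RFP- cells of MC38 it was Ms4a7 (1569 ± 197), Ms4a6d (576 ± 23.0), Ms4a6c (437 ± 47.6), Tmem176b (373 ± 75.1), Ms4a6b (265 ± 52.6), Ms4a4c (207 ± 92.4) and Tmem176a (175 ± 16.7). In RFP- cells, neighbours in these orders overlapped in their libraries except Tmem176b with Ms4a6d and Ms4a6b with Ms4a4c in B16F10, and Ms4a7 with Ms4a6d and Ms4a6d with Ms4a6c in MC38. Ms4a4c thus ranged from the 51.3 percentile of genes in B16F10 RFP+ cells to the 95.8 percentile in MC38 RFP- cells.

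**Figure D1:**
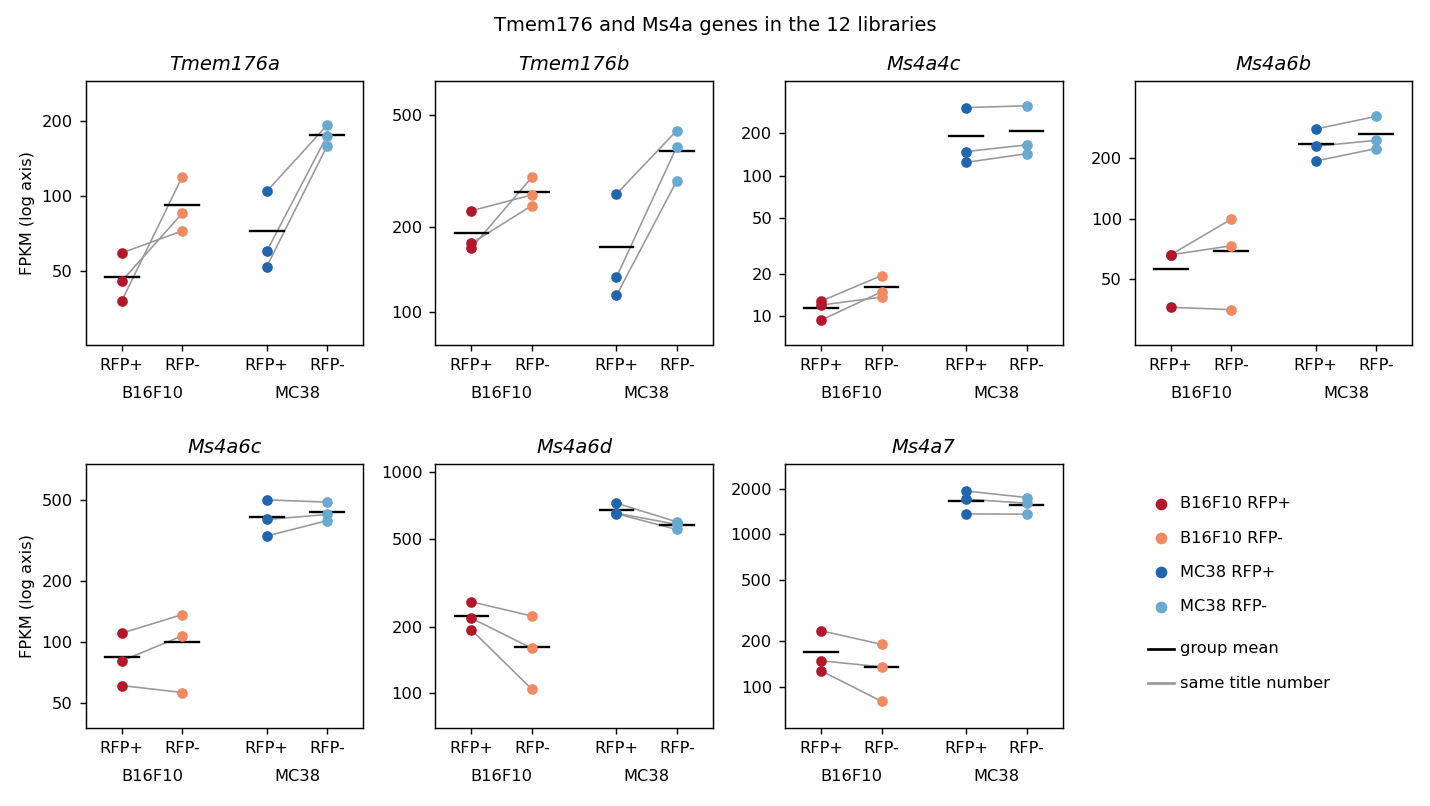
FPKM of the 7 genes on a log axis in the 12 libraries, 3 in each group; points are libraries, black bars are group means and grey lines join libraries of the same title number. The lines of Tmem176a and Tmem176b rise from RFP+ to RFP- in all 6 pairs, those of Ms4a6d and Ms4a7 fall in all 6, and the 5 Ms4a genes lie higher in every MC38 library than in any B16F10 library.

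The Tmem176 pair was lower in arginase reporter-positive cells of both tumours. Tmem176a was 38.1, 59.2 and 45.7 FPKM in B16F10 RFP+ libraries 12, 11 and 3, and 119, 72.5 and 85.1 FPKM in the RFP- libraries of the same numbers. In MC38 it was 60.1, 52.2 and 104 FPKM in RFP+ libraries 1, 2 and 3, and 174, 159 and 192 FPKM in the RFP- libraries. The gates did not overlap in either tumour, and the RFP- mean was 1.94 times the RFP+ mean in B16F10 and 2.42 times in MC38. As differences of log2(FPKM + 1) these were -0.93 (SE 0.25) and -1.33 (SE 0.25), and they lay below all but 0.661% and 0.144% of the genes kept.

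Tmem176b, its head-to-head partner, was 169, 228 and 175 FPKM in the B16F10 RFP+ libraries and 300.5, 260 and 238 FPKM in the RFP- libraries. In MC38 its RFP+ libraries had 132, 114 and 262 FPKM and its RFP- libraries 386, 292 and 441 FPKM. As deposited, the gates did not overlap in either tumour, with RFP- means 1.40 and 2.2 times the RFP+ means. The differences were -0.49 (SE 0.26) in B16F10 and -1.21 (SE 0.26) in MC38, lower in 3 of 3 pairs of libraries in each tumour. In B16F10 the separation of both genes depended on the scale. Each library was set to the median level of its macrophage core genes. The B16F10 gates then overlapped for Tmem176a and Tmem176b, and the difference of Tmem176b was -0.20 (SE 0.36). That median level was lower in each B16F10 RFP+ library than in its same-numbered RFP- library. The core genes' own gate differences had a median of 0.298, higher in RFP+ cells, and a scale set by these differences was not tested. The difference between tumours of the gate difference was 0.40 (SE 0.35) for Tmem176a and 0.72 (SE 0.37) for Tmem176b.

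The pair moved together between libraries, yet not in fixed proportion. Deviations of Tmem176a and Tmem176b from their group means had a Pearson r of 0.891 over the 12 libraries, a description of points that share each library's depth and the 578-base overlap. The ratio of Tmem176b to Tmem176a was 3.83 to 4.43 in B16F10 RFP+ libraries and 2.52 to 3.59 in B16F10 RFP- libraries. It was 2.19 to 2.51 in MC38 RFP+ and 1.84 to 2.30 in MC38 RFP- libraries. The ratio was thus higher in each B16F10 library than in any MC38 library, but only just. The nearest values were 2.52 in B16F10 RFP- library 12, a library described below as standing apart, and 2.51 in an MC38 RFP+ library. Within B16F10 the ratio was higher in the RFP+ gate without overlap.

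Among the Ms4a genes, Ms4a6d and Ms4a7 had higher means in RFP+ cells, in the direction opposite to the Tmem176 pair. For Ms4a7 in MC38 the means differed little (1664 against 1569 FPKM), within their spread. Ms4a6d, a macrophage member of the family, was 259, 193 and 218 FPKM in B16F10 RFP+ libraries 12, 11 and 3, and 223, 104 and 160 FPKM in RFP- libraries. In MC38 it was 649, 652 and 725 FPKM in RFP+ and 551, 581 and 596 FPKM in RFP- libraries. The gates overlapped in B16F10 and did not in MC38, where the difference was small (0.23, SE 0.22, with a pair SD of 0.058), while in B16F10 it was 0.52 (SE 0.22). Ms4a7 was 233, 127 and 148 FPKM in B16F10 RFP+ and 189, 79.9 and 135 FPKM in RFP- libraries. In MC38 it was 1703, 1363 and 1928 FPKM in RFP+ and 1604, 1358 and 1747 FPKM in RFP- libraries. Each RFP+ library of Ms4a7 exceeded its same-numbered RFP- library, and the gates overlapped in both tumours, with differences of 0.36 (SE 0.28) in B16F10 and 0.08 (SE 0.28) in MC38. Without B16F10 RFP- library 11 the B16F10 differences were 0.23 for Ms4a6d and 0.033 for Ms4a7. Without MC38 RFP+ library 3 or RFP- library 2 the MC38 difference of Ms4a7 turned to -0.035 or -0.022.

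The means of Ms4a4c, Ms4a6b and Ms4a6c were slightly lower in RFP+ than in RFP- cells of both tumours. Ms4a4c, a member known to be induced by interferon, was 9.4, 12.03 and 12.8 FPKM in B16F10 RFP+ and 14.9, 13.7 and 19.5 FPKM in RFP- libraries, without overlap (difference -0.45, SE 0.32). In MC38 it was 124, 148 and 304 FPKM in RFP+ and 143, 165 and 313 FPKM in RFP- libraries. There the numbers differed more than the gates did, with library 3 highest in both, and the difference was -0.13 (SE 0.32). Ms4a6b ranged from 36.2 to 66.2 FPKM in B16F10 RFP+ and from 35.3 to 99.7 FPKM in RFP- libraries, and Ms4a6c from 60.7 to 110 FPKM and from 56.1 to 136 FPKM. Both overlapped between gates in both tumours, with differences of -0.23 and -0.20 in B16F10 and -0.17 and -0.10 in MC38.

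**Figure D2:**
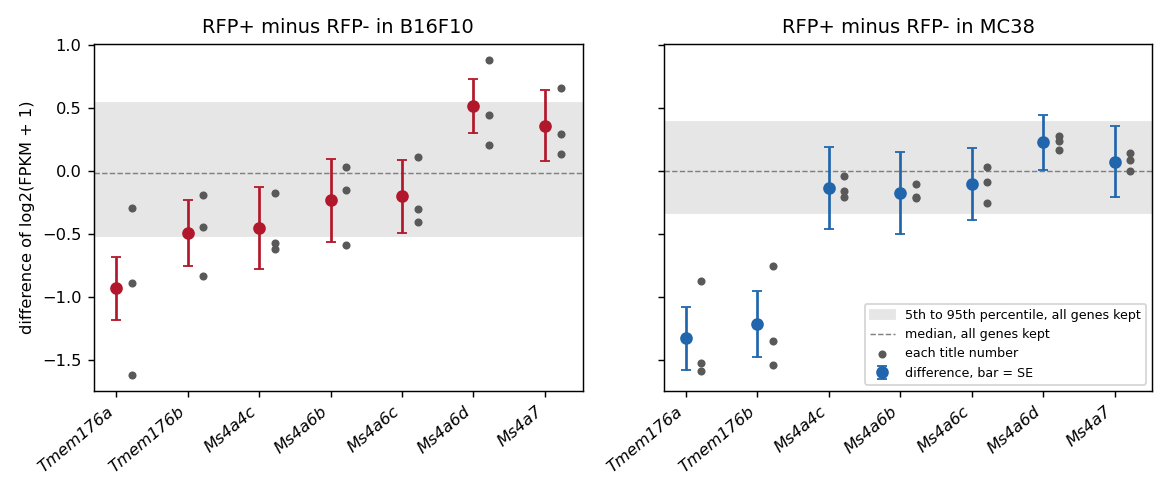
Difference of log2(FPKM + 1) between RFP+ and RFP- libraries for the 7 genes in B16F10 (left) and MC38 (right), with the SE of the fit as bars and the 3 same-numbered pairs as small points; grey bands span the 5th to 95th percentile of the 11808 genes. Tmem176a lies below the band in both tumours and Tmem176b in MC38, where it is at -1.21, while Ms4a6d and Ms4a7 lie above the median line in both.

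Read against all genes, few were called between gates. In limma without the number as a block, 0 members were among the 0.178% of genes called in B16F10 and 0 among the 0.0254% called in MC38, at an adjusted p under 0.05. At an unadjusted p under 0.05 the fit held 1159 genes in B16F10 and 396 in MC38. With the number as a block, Tmem176a and Tmem176b were among the 0.0847% of genes called lower in MC38, and 0 members were among the 1.36% called in B16F10. No gene was called for the difference between tumours of the gate difference without the block (0% of genes, 455 at an unadjusted p under 0.05), and 0.0339% of genes were with it, with 0 members. By the gates' ranges, Tmem176a, Tmem176b and Ms4a4c were among the 6.22% of genes lower in RFP+ cells of B16F10 without overlap. Tmem176a and Tmem176b were among the 4.98% lower, and Ms4a6d among the 6.33% higher, without overlap in MC38. Nothing is read from these counts, since the members were chosen by values of these comparisons.

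Several MHC class II genes were also lower in RFP+ cells of B16F10. Genes of MHC class II and peptide loading summed to 3830 to 4630 FPKM in B16F10 RFP+ against 5710 to 12100 FPKM in RFP- libraries, and to 43700 to 50400 FPKM in MC38 RFP+ against 52900 to 63400 FPKM in RFP- libraries. Of 12 such genes 11 were tested, and in B16F10 4 fell in RFP+ cells and 0 rose in limma (median log2 difference -1.25, against -0.0117 over all genes). H2-Ab1, a class II beta chain, fell by 1.54 on the log2 scale (SE 0.26, adjusted p = 0.0431 in limma), and H2-DMb1, a peptide exchange chain, fell by 1.26 (SE 0.18, adjusted p = 0.0211). With the number as a block 6 fell in B16F10. In MC38 0 of the 11 passed with or without the block, with a median of -0.45 against 0.0017 over all genes.

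The 11 dendritic cell markers summed to 15.6 to 23.6 FPKM in B16F10 RFP+ and 30.8 to 57.0 FPKM in RFP- libraries. In MC38 the sums were 29.4 to 51.7 FPKM in RFP+ and 48.6 to 90.0 FPKM in RFP- libraries, which overlapped. Of the 11 markers 9 were tested, and in limma 0 passed between gates in either tumour (medians -0.46 in B16F10 and -0.59 in MC38), while with the block 1, Ccr7, fell in B16F10. By ranges, Batf3 (10.8 to 13.8 against 18.1 to 22.4 FPKM) and Xcr1 (1.02 to 1.63 against 2.97 to 4.80) were lower in MC38 RFP+ libraries without overlap. So were Clec9a (0.527 to 0.850 against 1.70 to 2.35) and Dpp4 (0.611 to 0.876 against 1.75 to 2.26), as were 4.98% of all genes. The other markers overlapped between the MC38 gates. Of these 11 markers 6, 2, 5 and 2 were under 1 FPKM in every library of B16F10 RFP+, B16F10 RFP-, MC38 RFP+ and MC38 RFP-, and none was at 0 in every library of a group. The part of dendritic cell RNA in the Tmem176 values was not tested. In these bulk samples, fewer cells of a type and less RNA per cell cannot be told apart.

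Arg1, the gene behind the reporter, was higher in the RFP+ gate of both tumours, by a log2 difference of 3.21 (SE 0.27, adjusted p = 0.0002514 in limma) in B16F10 and 3.17 (SE 0.27, adjusted p = 0.0002858) in MC38. Summed values were 614875 to 815591 FPKM per library. Read totals were not used here. Gene by gene, the commonest ratio of a low value to the same gene's low value in MC38 RFP- library 2 was 3.03 to 3.63 in B16F10 libraries. It was 1 to 1.18 in the MC38 libraries, and was taken as the ratio of what a single read adds. This estimate rests on a small part of the genes, 61 of 800 in B16F10 RFP+ library 12. B16F10 RFP- library 12 stood apart, with the highest sum, the most genes at 0 (10597) and an array weight of 0.146. Without it, or without B16F10 RFP+ library 11, the B16F10 gate difference of Ms4a6b and Ms4a6c turned sign, while Tmem176a, Tmem176b and Ms4a4c kept theirs. Defining macrophage markers such as Csf1r, Cd68 and Adgre1 were present in every group. T, NK, mast cell, epithelial, endothelial and platelet lists summed to at most 32.0 FPKM in any library, and B cell markers to at most 35.3 FPKM, with Ms4a1 at group means of 0.294 to 0.384 FPKM. Fibroblast markers summed to 1.78 to 2.93 FPKM in B16F10 libraries and 48.3 to 64.7 FPKM in MC38 libraries. The 8 monocyte markers summed to 53.3 to 278 FPKM. Neutrophil markers summed to 19.8 to 815 FPKM in B16F10 and 38.0 to 43.4 FPKM in MC38. Between gates the block added calls of Itgam and Cd14 (higher in RFP+) and Retnlg (lower) in B16F10, and of Fn1 (higher) in both tumours.

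The larger contrast was between tumours, and it split the members. All 5 Ms4a genes were lower in B16F10 than in MC38 in both gates, in every library, and the Tmem176 pair differed less. MC38 means were 16.8 and 12.9 times those of B16F10 for Ms4a4c in RFP+ and RFP- cells. For Ms4a7 they were 9.85 and 11.7 times, for Ms4a6c 4.92 and 4.39 times, for Ms4a6b 4.18 and 3.82 times and for Ms4a6d 3.02 and 3.54 times. Tmem176a had ratios of 1.52 and 1.90, with ranges that overlapped in RFP+ cells, and Tmem176b had ratios of 0.889 and 1.40, with overlap in both gates.

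On the log2 scale the differences, B16F10 minus MC38, were -3.86 and -3.54 (SE 0.32) for Ms4a4c in RFP+ and RFP- cells and -3.33 and -3.61 (SE 0.28) for Ms4a7. They were -2.31 and -2.21 for Ms4a6c, -2.08 and -2.02 for Ms4a6b and -1.60 and -1.89 for Ms4a6d. The 5 Ms4a genes were among the 20% of genes called lower in B16F10 in RFP+ cells, and these 5 and Tmem176a among the 21.9% called lower in RFP- cells. By ranges, the same 5 were among the 24.8% of genes lower without overlap in RFP+ cells, and the 6 among the 22.8% in RFP- cells. As between gates, nothing is read from these counts of members.

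Markers of melanoma cells, of macrophages and of fibroblasts also moved with this contrast. Of 6 fibroblast markers 4 were tested, and in B16F10 3 fell and 1, Lum, rose in each gate. Dcn differed by -5.22 (SE 0.18, adjusted p = 1.9e-10 in limma) in RFP+ cells. The 8 melanocytic markers summed to 8150 to 10700 FPKM in B16F10 libraries against 10.9 to 19.2 FPKM in MC38. The median of 14 macrophage core genes was 78.0 to 180 FPKM in B16F10 and 339 to 431 FPKM in MC38, and 12 of the 14 fell in B16F10 in each gate. Within B16F10 the core median was lowest in the libraries numbered 11, at 78.0 FPKM for the RFP+ gate and 83.7 FPKM for the RFP- gate, and Ms4a6b, Ms4a6c, Ms4a6d and Ms4a7 were also lowest in those 2 libraries of their gates. A smaller part of macrophage RNA in the B16F10 libraries and lower levels within the macrophages cannot be told apart from these values.

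The members' tumour differences were also read relative to other macrophage genes. Scaling each library to its macrophage core genes moved the median of all genes by 1.51 (RFP+) and 1.17 (RFP-) on the log2 scale toward higher values in B16F10. Ms4a4c then differed by -2.12 (SE 0.37) in RFP+ and -2.16 in RFP- cells, and Ms4a7 by -1.54 (SE 0.23) and -2.2. Ms4a6b, Ms4a6c and Ms4a6d had smaller differences than before, at -0.31, -0.53 and 0.19 in RFP+ cells and -0.62, -0.80 and -0.48 in RFP- cells. Tmem176a turned to 1.22 (SE 0.33) and 0.46. Tmem176b moved from 0.25 to 2.04 (SE 0.36) in RFP+ cells and turned from -0.47 to 0.94 in RFP- cells. Scaling to 12 pan-leukocyte genes, a list chosen after seeing the data, gave -2.03 and -1.67 for Ms4a4c, -1.44 and -1.70 for Ms4a7, 1.31 and 0.96 for Tmem176a and 2.13 and 1.44 for Tmem176b. After core scaling Tmem176a and Tmem176b were among the 81.7% of genes called higher, and Ms4a4c, Ms4a6c and Ms4a7 among the 3.37% called lower, in RFP+ cells. In RFP- cells Tmem176b was among the 71.3% called higher, and Ms4a4c, Ms4a6b, Ms4a6c and Ms4a7 among the 4.85% called lower. These member calls are a description too, since the members were chosen by these data.

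**Figure D3:**
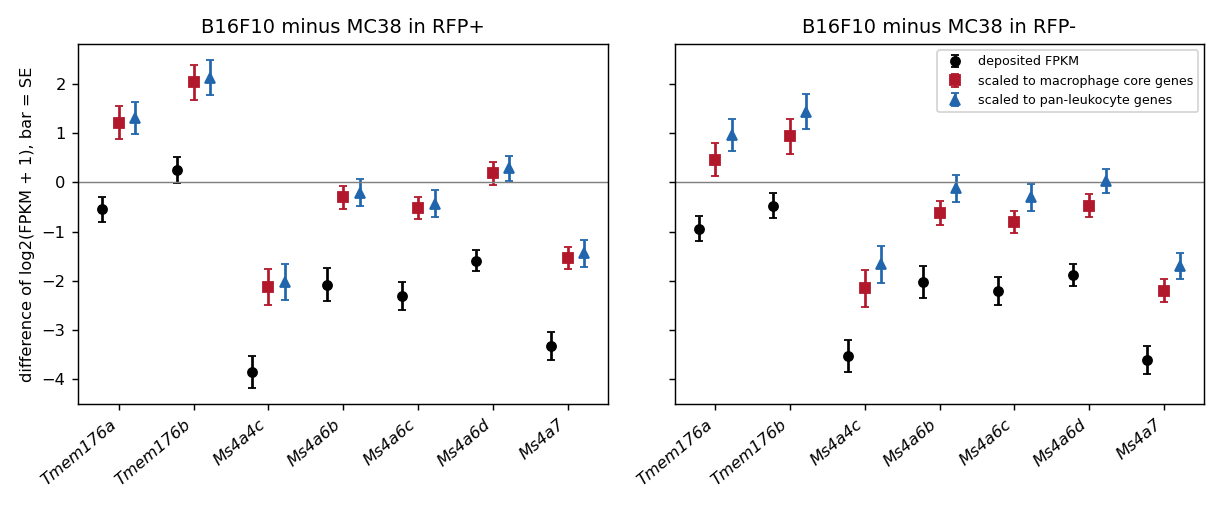
Difference of log2(FPKM + 1) between B16F10 and MC38 libraries for the 7 genes in RFP+ (left) and RFP- cells (right), as deposited and after scaling each library to macrophage core or pan-leukocyte genes; bars are the SE of the fit and the line marks 0. Ms4a4c and Ms4a7 stay below 0 under all 3 scalings in both gates, Ms4a6b, Ms4a6c and Ms4a6d lie closer to 0 after scaling (-0.80 to 0.28), and Tmem176a and Tmem176b lie above 0 after either scaling.

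Core-scaled values are also given by library. On the scale of FPKM set to a common core median, Ms4a7 was 340, 336 and 274 in B16F10 RFP+ and 218, 200 and 183 in B16F10 RFP- libraries, against 832 to 994 in the 6 MC38 libraries. On that scale Ms4a7 and Ms4a6d no longer overlapped between gates in B16F10, while Tmem176a (55.7, 157 and 84.7 in RFP+ against 137, 181 and 116 in RFP-) and Tmem176b (247, 605 and 324 against 347, 649 and 323) did overlap. Ms4a6d was 379, 512 and 405 in B16F10 RFP+ and 258, 260 and 217 in RFP- libraries, against 323 to 398 in MC38. The share of all genes without overlap between gates was not counted on that scale, so nothing is read from these separations. After core scaling 23.1% of all genes had a lower mean log2 value in RFP+ than in RFP- cells of B16F10, against 51.4% as deposited. Core scaling moved the B16F10 gate difference of all genes by 0.26, took Ms4a6d to 0.81, Ms4a7 to 0.66, Tmem176a to -0.65 and Tmem176b to -0.20 in that gate comparison, and turned the signs of Ms4a6b and Ms4a6c. Pan-leukocyte scaling moved it by 0.01 and left Ms4a6d at 0.53 and Tmem176a at -0.92, so these gate values rest on how the scale is set. The core scale is the median level of the core genes, lower in each B16F10 RFP+ library than in its same-numbered RFP- library. The core genes' own gate differences in B16F10 had a median of 0.298, higher in RFP+ cells. These summaries of the same genes thus went opposite ways, and scaling by the core genes' own differences was not tested.

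Ratios within a library do not depend on such a scale. Ms4a7 to Ms4a6d was 0.656 to 0.898 in B16F10 RFP+ and 0.767 to 0.847 in B16F10 RFP- libraries, against 2.09 to 2.66 and 2.34 to 2.93 in MC38. So Ms4a7 lay below Ms4a6d in every B16F10 library and above it in every MC38 library. The ratio of the neighbours Ms4a6b and Ms4a6c, whose promoter windows share the 48-base run, stayed between 0.558 and 0.824 in all 12 libraries. Ms4a4c to Ms4a6c was 0.0853 to 0.245 in B16F10 and 0.361 to 0.639 in MC38. These ratios compare FPKM, which is per length.

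**Figure D4:**
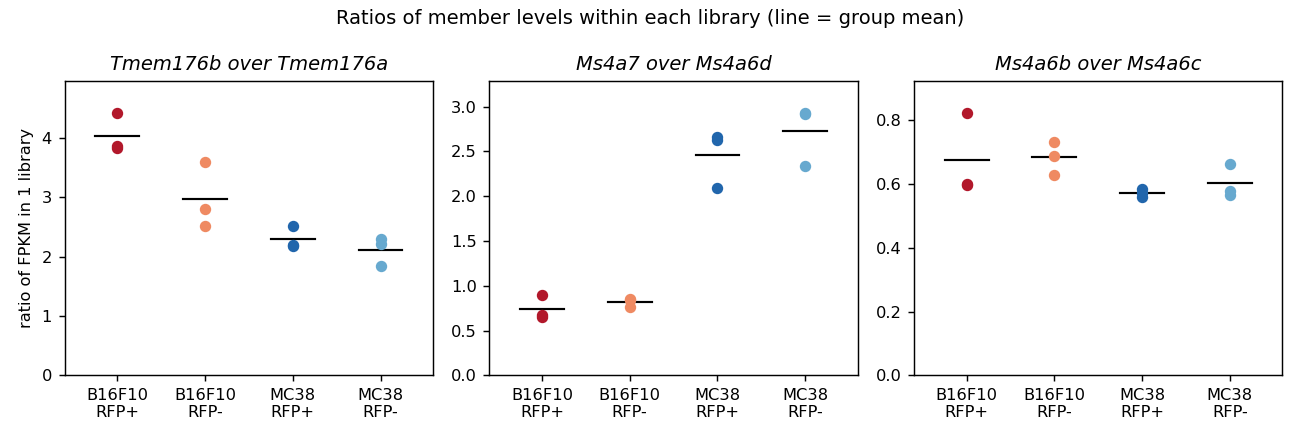
Ratio of FPKM within each library for Tmem176b over Tmem176a, Ms4a7 over Ms4a6d and Ms4a6b over Ms4a6c, with 3 libraries per group as points and the group mean as a line, on axes that start at 0. The first ratio is higher in B16F10 (2.52 to 4.43) than in MC38 (1.84 to 2.51), with almost no gap between the nearest libraries. The middle one is lower (0.656 to 0.898 against 2.09 to 2.93), and the last one overlaps.

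The rest of the Ms4a family was low. The files held 16 Ms4a symbols, of which 11 were not members, and only Ms4a4b and Ms4a8a of these passed the minimum, while 5 were at 0 in all 12 libraries. The 11 summed to 0.479 to 13.2 FPKM per library. Ms4a8a, a family member reported in tumour macrophages, had means of 3.94 and 1.57 FPKM in B16F10 RFP+ and RFP- cells and 7.37 and 6.10 FPKM in MC38. It was lower in B16F10 in RFP- cells (log2 difference -1.53, SE 0.52, adjusted p = 0.0222 in limma) and was not called in RFP+ cells (-0.89, SE 0.52, adjusted p = 0.163). Between gates its difference was 1.04 (SE 0.52) in B16F10, higher in 3 of 3 pairs and not called (adjusted p = 0.502 in limma, 0.129 with the block). Ms4a4b, a T cell member that shares sequence with Ms4a4c, had means of 1.01 to 3.74 FPKM and was not called in any comparison, against 192 and 207 FPKM for Ms4a4c in the 2 gates of MC38.

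Gpnmb, which lies 189 kb beyond Tmem176a and is a glycoprotein of melanocytes and macrophages, went the other way from Tmem176a between tumours as deposited. Its means were 1900 and 1970 FPKM in B16F10 RFP+ and RFP- cells and 55.8 and 26.6 FPKM in MC38, with log2 differences of 5.06 and 6.23 (SE 0.29, adjusted p = 2.1e-08 and 3.1e-09 in limma). Between gates in MC38 Gpnmb differed by 1.11 (SE 0.29, adjusted p = 0.423 in limma, 0.00986 with the block). Gimap1, Gimap6 and Gimap9, on the other side of the pair, had means of at most 2.06 FPKM in each group.

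Lists tied to these proteins by known function gave further context. Of 13 inflammasome genes 0 passed between gates in either tumour, with medians of 0.30 in B16F10 and -0.02 in MC38, and 12 fell in B16F10 against MC38 in each gate (median -1.97 in RFP+ cells, against 0.24 over all genes). Nlrp3, the sensor that Tmem176b restrains, had a gate difference of 0.53 (SE 0.48, adjusted p = 0.644 in limma) in B16F10 and 0.13 (SE 0.48, adjusted p = 1) in MC38. Casp1, the protease of the inflammasome, fell by 1.99 in B16F10 against MC38 in RFP+ cells (SE 0.24, adjusted p = 1.5e-05). Of 13 Trem2 and Dectin-1 signalling genes 12 were tested, 0 passed between gates, and 12 and 11 fell in B16F10 against MC38 in RFP+ and RFP- cells. Trem2, a lipid receptor, differed by -1.40 (SE 0.34, adjusted p = 0.00341) between tumours in RFP+ cells, and Clec7a, which encodes Dectin-1, by -2.63 (SE 0.24, adjusted p = 1.3e-06). Of 12 other tetraspan proteins 0 passed between gates, and between tumours 3 rose and 5 fell in RFP+ cells, with Cd81 lower (-1.39, SE 0.20, adjusted p = 6.2e-05) and Tspan3 higher (1.46, SE 0.11, adjusted p = 3.2e-07). All these falls stand beside the lower core genes in B16F10 given above.

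Finally, the genes most like each member were sought among 7750 named genes with a mean of at least 5 FPKM, by Pearson r of log2(FPKM + 1) over the 12 libraries. Tmem176a was most like Herpud1 (r = 0.908), an endoplasmic reticulum stress gene, then Tmem176b (0.863) and Anapc10 (0.837). Tmem176b was most like Asb2 (0.881), Tmem176a and Srsf7 (0.810). Ms4a4c was most like Ube2l6 (0.995), Oas1g (0.992) and Cd40 (0.991), of which Ube2l6 and Oas1g are interferon-induced genes. Its deviations from the group means were most like those of Ly6c2 (0.984), a monocyte gene whose protein the sort selected against and whose level was 54.1 and 41.2 FPKM in the 2 MC38 libraries numbered 3, against 7.56 to 14.4 FPKM in the other MC38 libraries.

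Ms4a6b was most like Fbxw17, Il21r and Laptm5 (0.994 to 0.993), and Ms4a6c like Pea15a, Fcer1g and the macrophage growth factor receptor gene Csf1r (0.993 to 0.992). Genes like Ms4a6d included Lat2 (0.988) and Abcc3 (0.984), and Ms4a7 was most like Slc31a2 (0.996), Abcc3 (0.994) and P2rx4 (0.993). The points of these correlations share libraries and the tumour contrast, so they describe these libraries only. Among members, deviations of Ms4a6b and Ms4a6c had an r of 0.953, and those of Ms4a6d and Ms4a7 one of 0.913. Ms4a4c had 0.409 or less with the other Ms4a members. Levels within a tumour, both gates together, gave another order. In MC38 Ms4a4c had an r of 0.945 with Ms4a6b, 0.935 with Ms4a6c, 0.326 with Ms4a6d and 0.591 with Ms4a7. In B16F10 the same values were 0.271, 0.177, -0.454 and -0.372. Ms4a6d with Ms4a7 had 0.441 in MC38 and 0.937 in B16F10.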

How the data were processed

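Bulk RNA-seq libraries were made with a SMART-Seq HT kit and Nextera XT, per the labels' protocols. The values are the FPKM per gene symbol that the authors deposited, 1 file per library. TopHat2 2.1.1, Bowtie2 2.2.8, SAMtools 0.1.18, Cuffdiff 2.2.1 and mm10 are named in the submitters' processing notes, while annotation, filters and strand use were not stated there.

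The members and the gene lists were chosen with earlier results of these data known. Named genes are the members, other Ms4a genes kept, up to 4 called genes per list by smallest adjusted p, the 3 most like genes and up to 3 chromosomal neighbours per side. Single genes of the lists were also named for background, after their values were seen. One of the most like genes is not reported here.

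FPKM were taken to log2(FPKM + 1). The 11808 of 24346 genes that reached 1 FPKM in 3 or more libraries entered limma 3.58.1 (R 4.3.3) with a trend, 4 group means and 8 residual degrees of freedom. Tests were two-sided, with Benjamini-Hochberg adjustment over all genes kept and a threshold of 0.05. The procedure was tested on simulated data. Same-numbered libraries of the 2 gates deviated together from their group means (r from 0.228 to 0.443 in 6 pairs, all over 0.1, against -0.306 to 0.0178 for other pairs). A block fit on the title number, with 4 residual degrees of freedom, is therefore given for the gate comparisons. Scalings set each library by the median log2 level of 14 macrophage core genes or 12 pan-leukocyte genes. Promoter windows and loci came from RefSeq (GRCm38.p6) and GENCODE vM21.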

Additional observations from a re-analysis of the deposited data

How the results depend on the processing

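The gate counts moved with the setting, while the gate directions of Tmem176a, Tmem176b and Ms4a6d did not turn. In B16F10 limma called 21 genes between gates. It called 10 with a pseudocount of 0.1, 6 with no filter, 5 with the compared groups alone, 238 with array weights (2 members, Tmem176a and Ms4a6d), and 4 to 90 when each library was left out (0 members in each case), with 4 without RFP- library 12 and 90 without RFP- library 11. The replicate block gave 160 genes there, and 163 without the number 12 pair (1 member, Ms4a6d). In MC38 the count was 3. It was 11 with a pseudocount of 5, 6 with quantile normalization (1 member), 1 after scaling to the macrophage core or to pan-leukocyte genes, 8 with the compared groups alone, 59 with array weights and 1 to 8 with a library left out (0 to 2 members, the 2 without RFP+ library 3). The replicate block gave 52 in MC38 and 137 without the B16F10 number 12 pair, with 2 members in each, as with array weights. Member calls are listed here as a description only. For the difference of the gate differences the count was 0, and 3 with no filter, 4 with the replicate block, 7 without the number 12 pair and 0 to 1 with a library left out. Between tumours in RFP+ cells 6523 genes became 10041 with core and 10226 with pan-leukocyte scaling, and the members' median log2 difference moved from -2.08 to -0.31 and -0.21. In RFP- cells the median moved from -2.02 to -0.62 and -0.12. Calls turned sign for Ms4a6d (0.19 and 0.28 in RFP+ cells, 0.022 in RFP- cells with pan-leukocyte scaling) and for Tmem176a in RFP- cells (0.46 and 0.96). These shifts follow from the scaling itself, and other causes were not tested. Of 35 member differences 21 had the same sign in each setting run, among them all gate differences of Tmem176a, Tmem176b and Ms4a6d, and 14 turned sign in a setting. Without MC38 RFP+ library 1 or RFP- library 3 the MC38 gate difference of Ms4a4c turned sign, at up to 0.21, and without RFP+ library 1 so did that of Ms4a6c. That of Ms4a7 turned without RFP+ library 3 or RFP- library 2 and with core scaling. Read depth was not given, so what it limits was not tested.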
